A study of Mus musculus with 40 samples.

Results

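Abca13, Atp11a, B4galt6, Ppp1r9a, Prok2 and Retnlg are 6 of the 45706 genes measured in 40 libraries of sorted mouse cells. They were selected by symbol because their values differed between blood myeloid cells of tumor-bearing and healthy mice, so their blood values are given as a description, without a test, and they were then followed into tumors and the other cell types. A working name for the set, genes raised in blood by a distant tumor, held in both blood cell types for 3 of them. Abca13, Atp11a and B4galt6 were higher in both neutrophils and monocytes of tumor-bearing mice, Prok2 and Retnlg were higher in neutrophils but not in monocytes, and Ppp1r9a was higher in monocytes and lower in neutrophils.

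RNA was sequenced from neutrophils and monocytes of 3 sources, namely colon tumors, the blood of mice with such tumors and the blood of healthy animals. Epithelial and stromal cells were sorted from tumors and from healthy colon, with 4 libraries in each of the 10 groups. Tumor-bearing mice carried Cdx2CreERT2 and floxed Apc alleles (Apc fl/fl), had a strain label of C57Bl6 mixed with Sv129, and were given 1 dose of Tamoxifen at 25 mg/kg, at 8 to 10 weeks of age according to the labels. Cdx2 directs the recombinase to the intestinal epithelium, and loss of Apc there starts adenomas. Whether the floxed part of Apc was lost was not checked, since values are per gene and not per exon. Healthy mice were C57Bl6 with no transgene and no agent, and their age is not given. Tumor, strain, alleles and Tamoxifen therefore cannot be told apart in any comparison of tumor-bearing with healthy mice. Tumor neutrophils were gated as CD45+ CD11b+ MHCII- Ly6G+ Ly6C-low cells, tumor monocytes as Ly6G- Ly6C-high cells, epithelial cells as EpCAM+ CD45- cells and stromal cells as negative for both EpCAM and CD45. The titles name 2 animals for 1 blood neutrophil library of tumor-bearing mice and for 3 blood monocyte libraries of healthy mice, and several animals gave more than 1 tumor-bearing library. Within a group the titles name different animals, and p-values measure the spread between these libraries. Tumor neutrophil, monocyte, epithelial and stromal libraries came in part from the same animals, and the main fits did not take this into account. Some healthy libraries of different cell types also name the same animal.

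Neutrophils are short-lived granulocytes that leave the bone marrow with their granule proteins already made, and monocytes are the circulating precursors of many tissue macrophages. Tumors can act on both at a distance, through factors such as G-CSF that change how many are released from the marrow and how mature they are. The 6 genes have different roles. Prok2 encodes prokineticin 2 (Bv8), a secreted peptide made by G-CSF-stimulated myeloid cells and known for its action on blood vessels. Retnlg encodes resistin-like gamma, a small secreted protein of myeloid cells. Abca13 encodes a very large transporter of the lipid-carrying ABCA family, Atp11a a P4-ATPase that flips phosphatidylserine to the inner leaflet of the plasma membrane, and B4galt6 a galactosyltransferase that makes lactosylceramide. Ppp1r9a encodes neurabin, which binds actin and brings protein phosphatase 1 to it.

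Prok2 and Retnlg are the secreted pair with the strongest neutrophil pattern, and Abca13 the gene that differed in the most cell types, so the 250 bases before their RefSeq transcript starts are shown (GRCm38.p6, 5′ to 3′ on the gene's strand). Capitals mark a match to the C/EBP motif TTNNGNAA, searched on both strands. The Prok2 window is chr6:99726393-99726642 on the minus strand, the Retnlg window chr16:48872358-48872607 on the plus strand and the Abca13 window chr11:9191692-9191941 on the plus strand.
Prok2: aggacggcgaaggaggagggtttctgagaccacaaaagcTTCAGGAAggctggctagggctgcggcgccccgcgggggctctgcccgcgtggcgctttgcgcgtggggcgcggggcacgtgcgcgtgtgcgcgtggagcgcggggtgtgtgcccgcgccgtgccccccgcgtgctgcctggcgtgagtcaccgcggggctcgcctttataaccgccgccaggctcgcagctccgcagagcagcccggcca
Retnlg: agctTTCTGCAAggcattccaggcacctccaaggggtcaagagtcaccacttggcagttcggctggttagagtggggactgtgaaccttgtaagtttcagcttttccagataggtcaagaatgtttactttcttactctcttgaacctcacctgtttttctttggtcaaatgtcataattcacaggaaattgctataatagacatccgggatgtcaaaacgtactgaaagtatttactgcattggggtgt
Abca13: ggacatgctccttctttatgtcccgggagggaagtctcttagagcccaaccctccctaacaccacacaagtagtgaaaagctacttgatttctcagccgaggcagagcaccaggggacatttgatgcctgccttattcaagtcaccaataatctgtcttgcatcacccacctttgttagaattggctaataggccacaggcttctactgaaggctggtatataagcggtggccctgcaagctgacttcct
The Prok2 window held 1 C/EBP match, TTCAGGAA, at positions -211 to -204 from the start, and the Retnlg window held 1, TTCTGCAA, at -246 to -239. Of all 32851 promoters of this table, 36.8% held this motif within the same length, so a match was common. Neither the STAT motif TTCNNNGAA, held by 7.02% of promoters, nor the PU.1 motif GAGGAA, held by 23.3%, was found in a window of the 5 genes with an entry. These matches describe letters only. The first bases after the RefSeq start of Retnlg were not those of a GENCODE transcript, so its window may lie off the start used for counting.

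The libraries held 10716847 to 38002110 counts on genes, of which mitochondrial genes took 5.34% to 83.9%. Levels are given as the RPKM values deposited by the authors, that is reads scaled to gene length and to a size of the library. Their scale relative to the total counts ran from 0.642 to 1.55 times its median over the libraries. The size used was therefore not these totals, and RPKM ratios can differ from fitted fold changes. The sorted cells carried the markers of their labels with several exceptions that touch the results. First, the median of 10 epithelial markers reached 92.6% of its level in tumor epithelial cells in tumor neutrophil library 1, against 4.61% to 17.7% in the other 3 tumor neutrophil libraries, and the median of 5 neutrophil markers there was 11.4% of that of tumor-bearing blood neutrophils, against 47.0% to 72.0%. Second, the tumor stromal libraries fell into 2 kinds. Libraries 1 and 2 held epithelial markers at 93.3% and 48.4% and a summed endothelial level of 4.65 and 3.86 RPKM, whereas libraries 3 and 4 held epithelial markers at 20.5% and 12.7%, endothelial sums of 132 and 138 RPKM and neutrophil markers at 8.00% and 5.45%. Fibroblast markers summed to 5.97 to 24.0 RPKM in tumor stroma against 355 to 2010 RPKM in healthy stroma. Next, Ly6g, the defining neutrophil antigen, was at 1.47 to 8.29 RPKM in healthy blood neutrophils and at 13.9 to 39.3 RPKM in those of tumor-bearing mice. Last, the blood libraries differed in erythroid and platelet transcripts, whose part in the results was not tested. Healthy neutrophil libraries 1 and 2 held erythroid sums of 462 and 538.5 RPKM and platelet sums of 222 and 226 RPKM. Libraries 3 and 4 held 4.32 and 9.35 RPKM, and 1.74 and 10.2 RPKM. The erythroid sums of tumor-bearing neutrophil libraries 1 to 4 were 9.51, 84.1, 1068 and 791 RPKM. In these bulk libraries fewer cells of a type and less RNA per cell cannot be told apart.

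**Figure D1:**
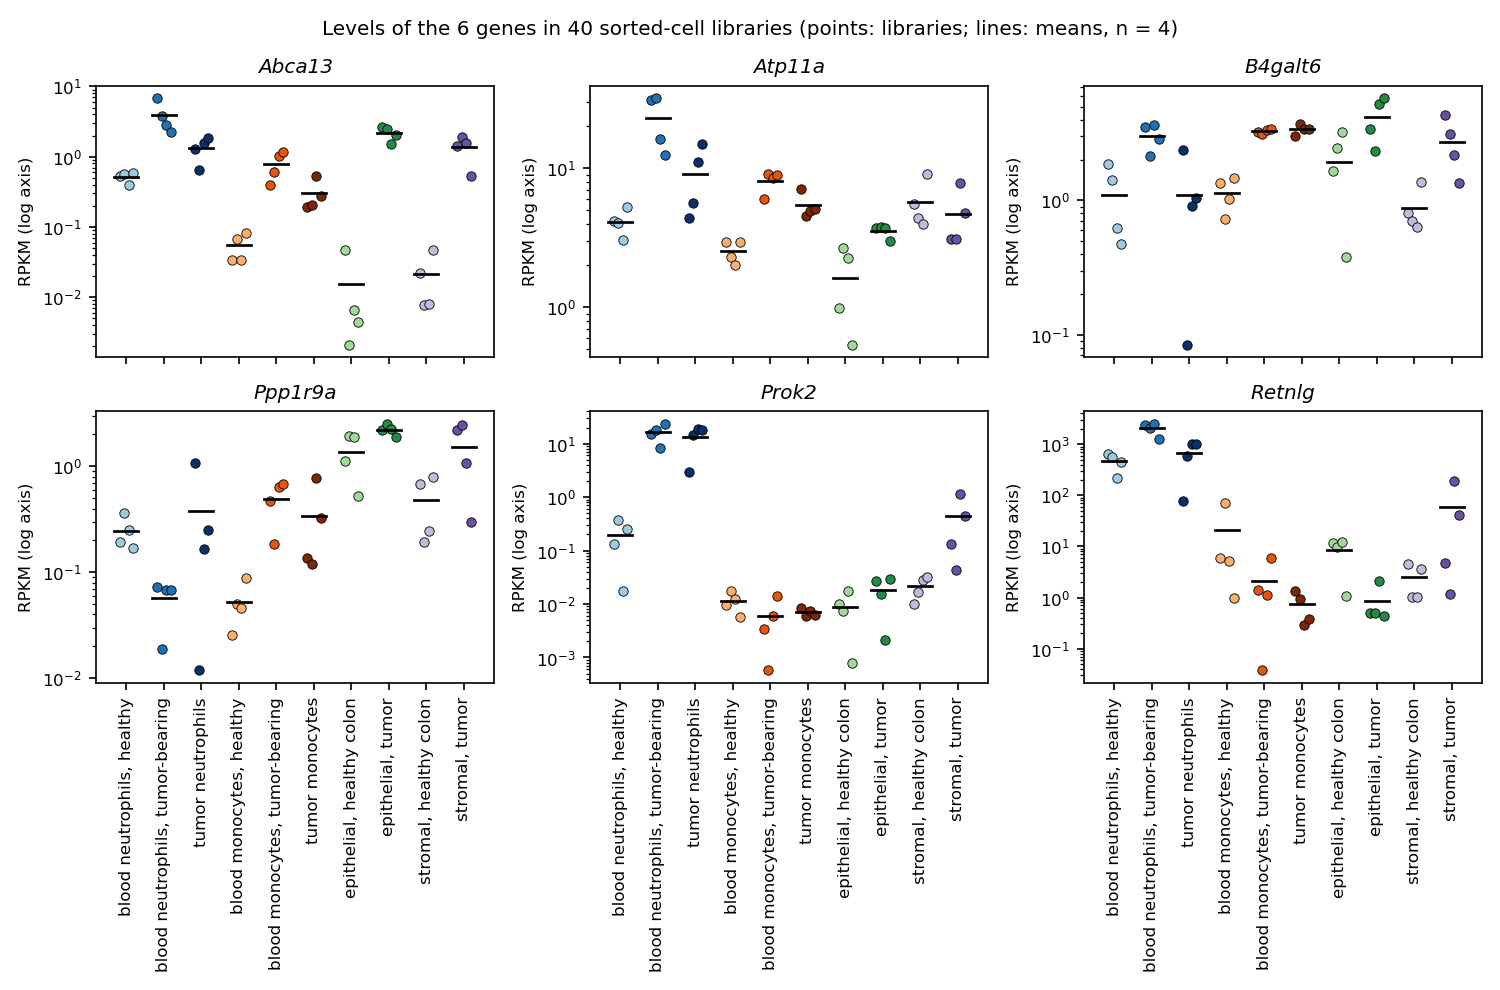
Levels of the 6 genes in RPKM (vertical log axis, 1 panel per gene) in the 10 groups of sorted cells (horizontal axis). Points are the 4 libraries of a group and lines their mean. Prok2 and Retnlg were highest in neutrophils, Ppp1r9a in tumor epithelial cells, and Abca13 was low in healthy colon and high in tumors. Prok2 in monocytes and epithelial cells rests on at most 5 counts per library.

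Blood neutrophils of tumor-bearing mice held more Prok2, Abca13, Atp11a, Retnlg and B4galt6 than those of healthy mice, and less Ppp1r9a. Prok2 differed most. It was at 0.131, 0.369, 0.0174 and 0.252 RPKM in the 4 healthy libraries, which is 2 to 52 counts, and at 15.1, 17.7, 8.28 and 23.5 RPKM in the 4 tumor-bearing libraries. The means were 0.192 ± 0.152 and 16.1 ± 6.32 RPKM (SD, n = 4), a ratio of 83.9, and the log2 fold change of the edgeR fit was 6.47 (SE 0.67). Prok2 thus went from near the detection limit to a moderate level, with a wide gap between the groups. Retnlg was abundant in both groups, at 633, 551, 217 and 448 RPKM in healthy and at 2374, 2073, 2519 and 1270 RPKM in tumor-bearing mice. Its mean was 4.45 times higher, a smaller ratio than that of Prok2 on a far higher level, and the log2 fold change was 2.22 (SE 0.31).

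Of the lipid-handling genes, Abca13 was at 0.524, 0.571, 0.390 and 0.588 RPKM in healthy blood neutrophils and at 6.77, 3.85, 2.86 and 2.22 RPKM in those of tumor-bearing mice, a log2 fold change of 2.93 (SE 0.31). Atp11a was at 4.19, 4.02, 3.03 and 5.28 RPKM in healthy and at 30.9, 31.8, 16.1 and 12.4 RPKM in tumor-bearing mice, a log2 fold change of 2.47 (SE 0.30). In both genes, libraries 1 and 2 of the tumor-bearing mice, whose animals also gave tumor libraries, were above libraries 3 and 4. B4galt6 came closest to an overlap, with 1.87, 1.41, 0.626 and 0.476 RPKM in healthy and 3.51, 2.14, 3.64 and 2.86 RPKM in tumor-bearing mice, and a log2 fold change of 1.56 (SE 0.39). Its higher healthy libraries, 1 and 2, were those with more erythroid and platelet transcripts, whose part was not tested. In tumor-bearing libraries 1 to 4 the erythroid sums were 9.51, 84.1, 1068 and 791 RPKM. The platelet sums there were 2.34, 23.4, 39.5 and 40.5 RPKM. Ppp1r9a went the other way, from 0.192, 0.360, 0.252 and 0.168 RPKM in healthy to 0.0735, 0.0188, 0.0676 and 0.0681 RPKM in tumor-bearing mice, a log2 fold change of -2.02 (SE 0.45), at a level where a library held only 17 to 484 counts. Every library of tumor-bearing mice was above every healthy library for 5 of the 6 genes and below for 1. These gaps chose the genes, and among the 13360 genes tested 6.38% were higher and 7.75% lower in every library.

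In blood monocytes, Ppp1r9a was among the 4 genes with every tumor-bearing library above every healthy one, with Abca13, Atp11a and B4galt6. Of the 15313 genes tested, 2.3% were higher and 5.06% lower in every library, and the members were again chosen on such gaps. Abca13 was at 0.0343, 0.0680, 0.0334 and 0.0825 RPKM in healthy and at 0.394, 0.602, 1.02 and 1.17 RPKM in tumor-bearing mice, a ratio of means of 14.6 and a log2 fold change of 3.96 (SE 0.51). Ppp1r9a was at 0.0256, 0.0497, 0.0458 and 0.0876 RPKM in healthy and at 0.469, 0.184, 0.633 and 0.678 RPKM in tumor-bearing mice, a log2 fold change of 3.30 (SE 0.54). Both genes were low but detected in healthy monocytes, at 43 to 96 counts per library for Abca13 and 26 to 75 for Ppp1r9a. Atp11a went from 2.03 to 2.96 RPKM over the healthy libraries to 6.01 to 9.15 RPKM, a log2 fold change of 1.78 (SE 0.23), and B4galt6 from 0.732 to 1.47 RPKM to at least 3.12 RPKM in each tumor-bearing library, a log2 fold change of 1.62 (SE 0.26). The 4 tumor-bearing libraries lay closest together for B4galt6, at 3.27 ± 0.128 RPKM (SD, n = 4).

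The secreted pair did not show this pattern in monocytes. Prok2 had at most 1 count in each of the 8 blood monocyte libraries and did not pass the filter on low counts. Retnlg was at 5.97, 71.8, 5.10 and 0.993 RPKM in healthy monocytes and at 1.38, 0.0378, 1.13 and 6.01 RPKM in tumor-bearing monocytes, so the groups overlapped. Its log2 fold change was -3.22 (SE 1.38) and -0.73 without healthy library 2, the library at 71.8 RPKM. In that library the neutrophil markers were at 0.432% of their level in tumor-bearing blood neutrophils, against 0.0721% to 0.144% in the other 3, and whether neutrophil RNA gave its Retnlg was not tested. Neutrophil markers were also higher in the monocytes of tumor-bearing mice, at 0.685% to 1.32%, with Abca13 and Atp11a higher in the same libraries. The neutrophil gene S100a8 was at 31.0 to 68.3 RPKM there against 1.78 to 9.37 RPKM in healthy monocytes, while Ly6g was at or under 0.957 RPKM and Retnlg at or under 6.01 RPKM. The part of neutrophil transcripts in these 2 genes was not tested.

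**Figure D2:**
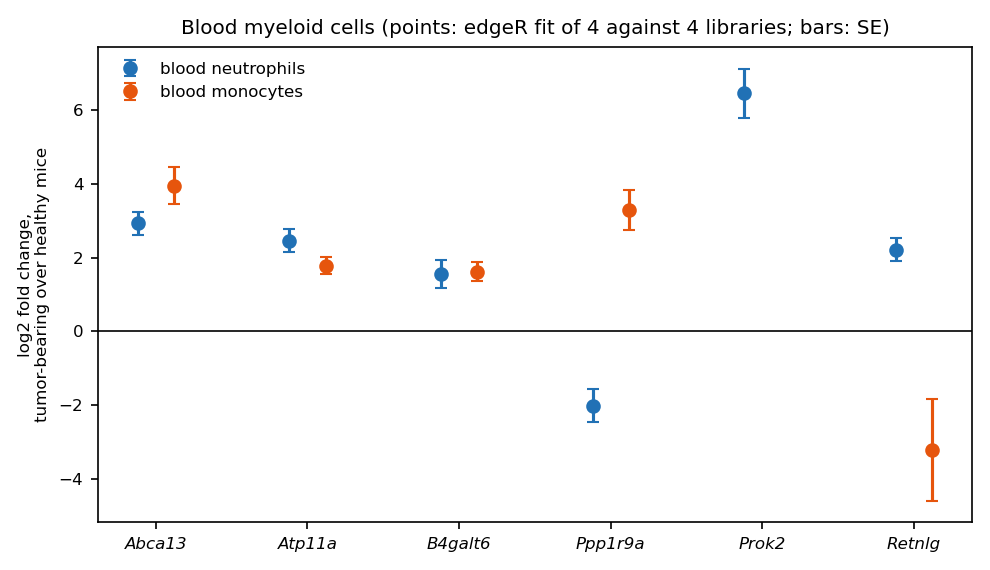
Log2 fold change of each gene in blood neutrophils (blue) and blood monocytes (orange) of tumor-bearing over healthy mice, as fitted by edgeR on 4 against 4 libraries, with bars for the SE. The points for Abca13, Atp11a and B4galt6 were above 0 in both cell types, and those of Ppp1r9a, -2.02 and 3.30, and of Retnlg, 2.22 and -3.22, lay on opposite sides of 0. Prok2 could not be fitted in monocytes.

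Genes with related roles were read from lists, without the 6 genes themselves, on the same fits. A gene was called where its Benjamini-Hochberg adjusted p was under 0.05 and its log2 fold change was beyond 1.5 in either direction in edgeR's quasi-likelihood test, which called 4.01% of all genes in blood neutrophils and 0.209% in blood monocytes. The genes of secondary and gelatinase granules, the proteins that neutrophil precursors pack late in the marrow, were mostly higher in tumor-bearing mice. In blood neutrophils 7 of 8 rose, with a median log2 fold change of 4.05 against -0.01 over all genes. They included the chitinase-like gene Chil3 (log2 fold change 5.34, edgeR adjusted p = 0.00067), neutrophilic granule protein Ngp (5.22, 0.00067) and lactoferrin Ltf (5.13, 0.00134), and the exception, Mmp9, was at 0.82 (0.0444), under the fold threshold. In blood monocytes 3 of 8 rose, with a median of 3.75 against 0.02: Ngp (10.19, 1.7e-05), lipocalin Lcn2 (4.94, 0.0374) and Ltf (4.65, 0.00396). In the same comparison 2 of 5 neutrophil markers rose, with a median of 1.03, and their part in the granule genes was not tested. Of the primary granule genes, made earlier in the marrow, none of 5 passed the filter in neutrophils, and of the 4 tested in monocytes edgeR called 0, with 3 at an unadjusted p under 0.05, 1 called by DESeq2 and 0 by limma-voom.

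**Figure D3:**
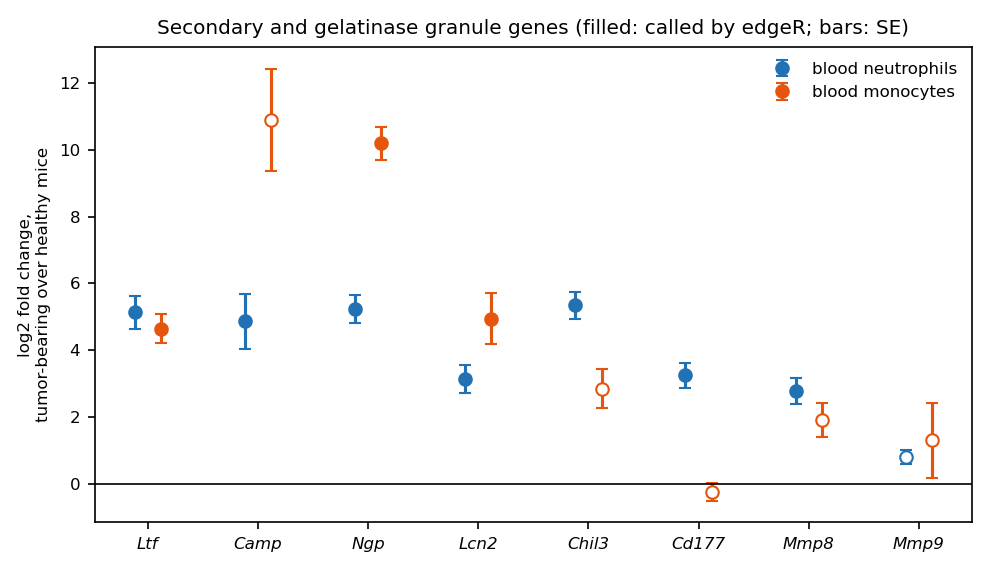
Log2 fold change (tumor-bearing over healthy mice, bars for the SE) of the 8 secondary and gelatinase granule genes in blood neutrophils (blue) and blood monocytes (orange), with filled points for genes called by edgeR. In neutrophils 7 of 8 were called and in monocytes 3 of 8, all higher in tumor-bearing mice.

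Of the G-CSF signalling genes, from the receptor Csf3r to the feedback inhibitor Socs3, edgeR called 0 of 11 tested in blood neutrophils, with 0 at an unadjusted p under 0.05 and 0 called by DESeq2 or limma-voom, and 0 of 12 in monocytes, with 4 at an unadjusted p under 0.05 and 0 by either other tool. Csf3r itself was at 322 ± 29.0 RPKM in healthy and 230 ± 52.8 RPKM in tumor-bearing blood neutrophils (SD, n = 4, edgeR adjusted p = 0.273). Relatives of the members mostly did not pass the test. The list medians for ABCA transporters, P4-ATPases, glycosphingolipid enzymes, phosphatase 1 subunits and G-CSF signalling lay between -0.25 and 0.24 on the log2 scale in neutrophils and between -0.28 and 0.32 in monocytes, around the medians of all genes. Among ABCA transporters 1 of 8 fell in neutrophils, Abca9 (log2 fold change -2.38, edgeR adjusted p = 0.0194), and 0 of 12 were called in monocytes by edgeR, with 2 at an unadjusted p under 0.05, 1 called by DESeq2 and 0 by limma-voom. EdgeR called 0 of 13 P4-ATPases, their subunits and scramblases in either cell type, with 2 at an unadjusted p under 0.05 in each and 0 by the other tools. It called 0 of 12 galactosyltransferases and glycosphingolipid enzymes in either, with 1 at an unadjusted p under 0.05 in neutrophils and 4 in monocytes, of which DESeq2 called 1. It called 0 of 12 other phosphatase 1 subunits in either, with 5 at an unadjusted p under 0.05 in neutrophils, where DESeq2 and limma-voom each called 1, and 1 in monocytes, where they called 0. The 3 proliferation genes tested were not called in either, with 0 at an unadjusted p under 0.05 in neutrophils and 2 in monocytes and 0 by the other tools. Of the prokineticin family only the receptor Prokr1 was tested and edgeR did not call it in either cell type (log2 fold change -2.21 in neutrophils, adjusted p = 0.0872), though DESeq2 did in neutrophils.

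In the resistin-like family Retnla and Retnlb rose in blood neutrophils with log2 fold changes of 2.20 and 2.21 (edgeR adjusted p = 0.00579 and 0.0038), next to 2.22 for Retnlg. In all 12 neutrophil libraries Retnla was at 24.7% to 30.7% of the RPKM of Retnlg and Retnlb at 10.1% to 18.8%. Of the 569 stretches of 25 bases in the Retnlg transcripts, 8.61% occur in a Retnla transcript and 0.351% in a Retnlb transcript, and of the 544 stretches of 50 bases none does. How reads that match several genes were divided is not given, so the levels of these 3 paralogs are uncertain against each other. In monocytes 0 of 4 genes of this family were called by edgeR, with 3 at an unadjusted p under 0.05 and 0 by the other tools.

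In tumors, Prok2 in neutrophils was within the range of tumor-bearing blood neutrophils in 3 of 4 libraries, while Abca13, Atp11a, B4galt6 and Retnlg were lower than in blood. These comparisons share the blood libraries that chose the genes and are given without a test. Prok2 was at 2.96, 14.7, 18.6 and 17.8 RPKM in tumor neutrophils, with a log2 fold change from blood of -0.10 (SE 0.57). The low value is that of library 1, which held epithelial transcripts, and the other 3 had a mean of 17.03 ± 2.09 RPKM (SD, n = 3). Retnlg was at 78.1, 590, 1026 and 1005 RPKM, below every blood library of tumor-bearing mice, with a log2 fold change of -1.499 (SE 0.68), and Abca13 was at 1.27, 0.653, 1.55 and 1.85 RPKM, also below every one of them, with -1.55 (SE 0.39). Both remained above the mean of healthy blood neutrophils in most tumor libraries.

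Atp11a was at 4.36, 5.60, 11.1 and 15.0 RPKM in tumor neutrophils, and B4galt6 at 2.36, 0.0840, 0.913 and 1.03 RPKM, with log2 fold changes from blood of -1.27 (SE 0.47) and -1.66 (SE 0.63). One library of each overlapped the range of tumor-bearing blood neutrophils. Ppp1r9a was at 1.08, 0.0119, 0.167 and 0.251 RPKM. Its highest value again came from library 1, without which the mean was 0.143 ± 0.121 RPKM (SD, n = 3). The plot of levels shows that this library was also the highest tumor neutrophil library for B4galt6.

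For Abca13, Atp11a, B4galt6 and Ppp1r9a the log2 fold changes from blood were smaller in size in tumor monocytes than in tumor neutrophils. The neutrophil values include library 1, which held epithelial transcripts. B4galt6 was at 3.00, 3.73, 3.43 and 3.41 RPKM, a log2 fold change of 0.30 (SE 0.20) from blood, and Atp11a at 7.10, 4.51, 4.90 and 5.08 RPKM, a log2 fold change of -0.34 (SE 0.24). Abca13 was at 0.191, 0.206, 0.538 and 0.274 RPKM, with -1.13 (SE 0.47), and Ppp1r9a at 0.138, 0.119, 0.775 and 0.328 RPKM, with -0.23 (SE 0.64). For all 4 genes the ranges of tumor and blood libraries overlapped. For B4galt6, 3 tumor libraries were above every blood library and 1 was below. Prok2 stayed at 1 count in each tumor monocyte library. Retnlg was at 0.291 to 1.36 RPKM, with a log2 fold change from blood of -1.31 (SE 1.06).

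Within tumors, cell types were compared in a contrast that the choice of genes did not use, although some tumor libraries come from animals that also gave blood libraries. Retnlg and Abca13 were higher in tumor neutrophils than in tumor monocytes, with log2 fold changes of 10.62 (SE 1.59, edgeR adjusted p = 0.000751) and 2.74 (SE 0.51, 0.00275), each higher in all 4 neutrophil libraries. Prok2 was called as well, which makes 3 of 6 genes where edgeR called 13.8% of all genes, but it passed the filter on low counts only through groups where it was high and had to differ, so its call is no support. Its values are a description. Since Prok2 had 4 counts in all over the tumor monocytes against 5042 over the tumor neutrophils, its ratio per total counts was 1316, with an exact 95% interval of 514 to 4833 that covers counting error only. Atp11a was 1.43 higher on the log2 scale (SE 0.43, adjusted p = 0.0338), under the fold threshold, and overlapped between the groups. B4galt6 was lower in each of the 4 neutrophil libraries than in any monocyte library, but with -1.23 (SE 0.54) did not pass the test (adjusted p = 0.128). Ppp1r9a did not differ detectably, at 0.38 (SE 0.83, adjusted p = 0.781). Across all genes the median log2 fold change of this comparison was 0.31, and the calls of Retnlg and Abca13 were beyond that shift. The 10 epithelial markers, however, had a median of 2.52, with 3 of 10 called higher, next to 2.74 for Abca13. Tumor epithelial cells also held Abca13, and tumor neutrophil library 1 held epithelial transcripts. The part of epithelial RNA in the Abca13 call was not tested.

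Against tumor epithelial cells, 3 of 6 genes were called, where edgeR called 21.6% of all genes, and Atp11a took the place of Abca13. Retnlg (log2 fold change 10.70, edgeR adjusted p = 0.000109) and Atp11a (2.21, 0.00128) were higher in neutrophils. Prok2 was the third called, again only through the neutrophil side of the filter, with 8 counts in all over the tumor epithelial libraries and a ratio per total counts of 996 (exact 95% interval 505 to 2308, counting error only). Abca13 had a log2 fold change of 0.05 (SE 0.47, adjusted p = 0.941), with 1.33 ± 0.510 RPKM in tumor neutrophils and 2.15 ± 0.509 RPKM in tumor epithelial cells (SD, n = 4), and its sign turned with the scaling. Ppp1r9a was lower in all 4 neutrophil libraries than in any epithelial library, at -2.13 (SE 0.86, adjusted p = 0.0808), and B4galt6 at -1.29 (SE 0.54, 0.0903). Without tumor neutrophil library 1, which held epithelial transcripts, both were called, at -3.10 for Ppp1r9a (edgeR adjusted p = 0.0182) and -1.68 for B4galt6 (0.035). That made 5 genes called, with Prok2 among them, and the share of all genes called in that fit is not given.

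Against tumor stromal cells, Retnlg (log2 fold change 4.58, SE 1.22, edgeR adjusted p = 0.0153) and Atp11a (1.90, SE 0.43, 0.006) were higher in neutrophils. With Prok2, which had 4 to 105 counts per stromal library and is again given as a description, that made 3 of 6 genes where edgeR called 16.1% of all. Retnlg was at 4.83, 1.17, 193 and 41.5 RPKM in the 4 stromal libraries and Prok2 at 0.131, 0.0433, 1.15 and 0.446 RPKM. Stromal libraries 3 and 4, the ones with neutrophil markers at 8.00% and 5.45%, were the high ones for both genes. The part of neutrophil RNA in these values was not tested. Atp11a was at 3.12, 3.08, 7.78 and 4.77 RPKM in the stromal libraries, and only 2 of the 4 neutrophil libraries were above all of these. Its call was lost in 4 of 19 alternatives. With the animal named in the title as a block none of Retnlg, Atp11a and Prok2 was called, with edgeR adjusted p from 0.224 to 0.398.

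**Figure D4:**
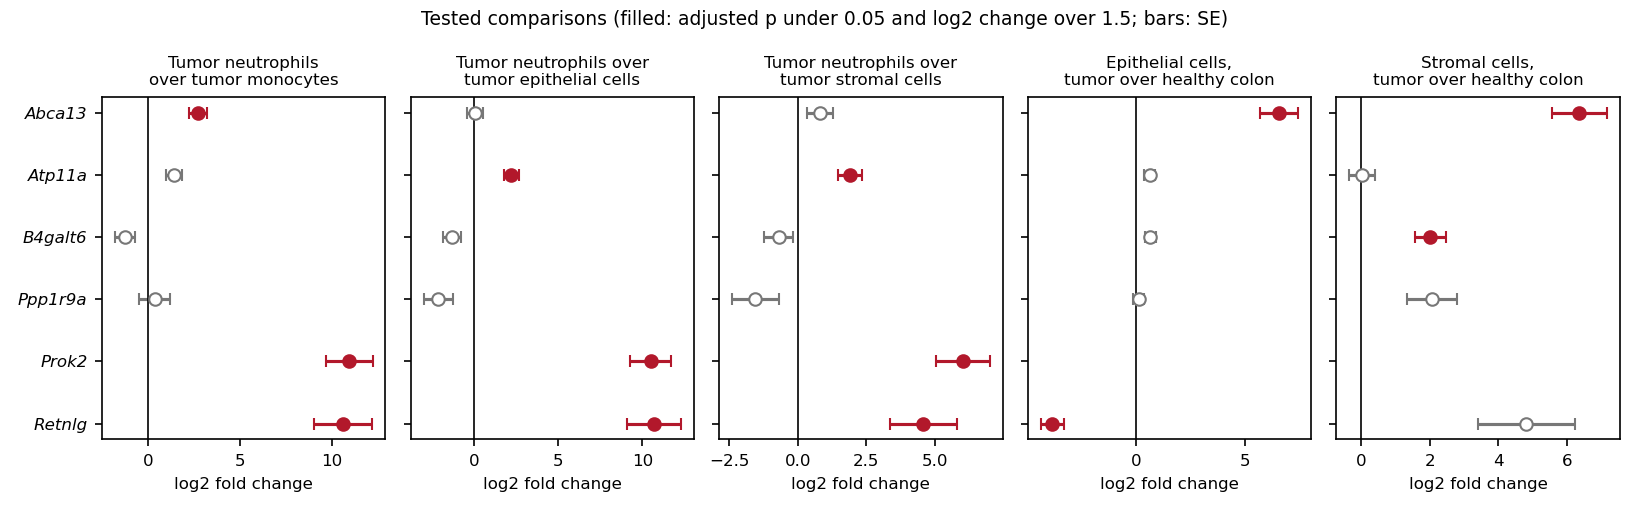
Log2 fold changes (horizontal axis, bars for the SE) of the 6 genes in the 5 tested comparisons, with filled points for genes called by edgeR and open points for the others. Prok2 and Retnlg were called in all 3 comparisons of tumor neutrophils with other tumor cells, and Abca13 in both comparisons of tumor with healthy colon. The calls of Prok2, and those of Abca13 in colon, rest on a filter that each gene passed through the group where it was high. Horizontal scales differ between panels, and Prok2 was not tested in the last 2.

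Abca13 was also higher in tumor than in healthy colon, in both cell types that are not of the blood. Healthy colon epithelial cells held almost none, with 0.0476, 0.0021, 0.00647 and 0.00448 RPKM, which is 3 to 52 counts. Tumor epithelial cells held 2.64, 2.44, 1.496 and 2.01 RPKM, close to the level of neutrophils. The log2 fold change was 6.54 (SE 0.87, edgeR adjusted p = 0.000481), and every tumor library was above every healthy one. Abca13 passed the filter through the tumor libraries and was removed when at least 10 counts were required in every library, in epithelial and in stromal cells, so both calls describe a gene near absence in healthy colon and add no support. In stromal cells Abca13 was at 0.0222, 0.00774, 0.00792 and 0.0477 RPKM in healthy colon and at 1.41, 1.93, 1.55 and 0.525 RPKM in tumors, a log2 fold change of 6.36 (SE 0.80, adjusted p = 0.00483). Without stromal libraries 1 and 2, those with most epithelial markers, it was called at 5.86 (adjusted p = 0.00901), but libraries 3 and 4 also held epithelial markers, and their part was not tested.

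The other genes differed less between tumor and healthy colon. In epithelial cells 2 of the 5 genes tested were called, where edgeR called 15.4% of all genes, and the second was Retnlg, which fell. It went from 11.5, 9.54, 12.3 and 1.09 RPKM in healthy to 0.491, 0.492, 2.08 and 0.426 RPKM in tumor epithelial cells, a log2 fold change of -3.83 (SE 0.53, adjusted p = 0.000572). Retnlb, a goblet cell gene, was at 88.8 ± 56.1 RPKM in healthy and 7.06 ± 7.99 RPKM in tumor epithelial cells (SD, n = 4, log2 fold change -4.19, adjusted p = 0.00108). Retnlg was at 9.39% to 15.1% of Retnlb in the healthy and 10.9% to 18.7% in the tumor epithelial libraries, and since the division of reads between these paralogs is not given, the Retnlg level and its fall in epithelium are uncertain. Neutrophil markers in healthy epithelial cells were at 0.000233% to 0.0441% of their level in tumor-bearing blood neutrophils, and the neutrophil gene S100a8 was at 0 to 1.70 RPKM. Healthy epithelial library 4, the lowest for Retnlg, was the library with 83.9% mitochondrial counts.

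Atp11a was at 0.996, 2.67, 2.24 and 0.537 RPKM in healthy and at 3.70, 3.78, 3.74 and 3.00 RPKM in tumor epithelial cells. All 4 tumor libraries were above all healthy ones in RPKM, yet the log2 fold change after TMM scaling was 0.63 (SE 0.25, edgeR adjusted p = 0.107). B4galt6 (0.66, SE 0.24, 0.0785) and Ppp1r9a (0.12, SE 0.24, 0.774) did not pass the test either. Ppp1r9a had its highest mean in tumor epithelial cells, 2.22 ± 0.267 RPKM, followed by tumor stroma, 1.51 ± 0.999 RPKM, and healthy epithelial cells, 1.37 ± 0.678 RPKM (SD, n = 4). Prok2 had 0 to 5 counts per epithelial library and was not tested.

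In stromal cells 2 of the 5 genes tested were called, Abca13 and B4galt6, where edgeR called 8.4% of all genes. B4galt6 was at 0.808, 0.704, 0.631 and 1.37 RPKM in healthy and at 4.30, 3.13, 2.16 and 1.34 RPKM in tumor stroma, a log2 fold change of 2.02 (SE 0.45, adjusted p = 0.0263). Healthy stromal library 4, at 1.37 RPKM, was also the healthy stromal library with the most epithelial markers, 10.1%. The epithelial markers of tumor stromal libraries 1 to 4 were at 93.3%, 48.4%, 20.5% and 12.7%, the same order as B4galt6. Without libraries 1 and 2, B4galt6 was at 1.27 (adjusted p = 0.105). The part of epithelial RNA in B4galt6 was not tested. Leaving out any 1 of healthy stromal libraries 1, 2 or 3 or of tumor stromal libraries 1 or 2 also ended this call, with adjusted p from 0.0608 to 0.0807. Ppp1r9a (2.07, SE 0.72, 0.112) and Retnlg (4.81, SE 1.42, 0.0667) did not pass the test, and without libraries 1 and 2 Retnlg did (5.79, 0.0099). The tumor libraries kept there, 3 and 4, held neutrophil markers at 8.00% and 5.45% and Retnlg at 193 and 41.5 RPKM. The part of neutrophil RNA in this call was not tested. Atp11a had a log2 fold change of 0.03 (SE 0.37, adjusted p = 0.976). Prok2, at 2 to 3 counts per healthy and 4 to 105 counts per tumor stromal library, did not pass the filter and was not tested.

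In the colon, related genes were called in both directions, where edgeR called 15.4% of all genes in epithelial and 8.4% in stromal cells. Markers of the sorted cells moved in the same comparisons. In epithelial cells 5 of 10 epithelial markers fell, with a median of -1.43. In stromal cells 6 of 6 fibroblast markers fell, with a median of -4.87, 4 of 10 epithelial markers rose, with a median of 4.18, and 2 of 5 neutrophil markers rose, with a median of 4.76. Their part in the counts of related genes was not tested. Among ABCA transporters 6 of 11 were called in epithelial cells, 4 higher and 2 lower in tumors, with Abca12 at -4.79 (edgeR adjusted p = 0.000371), Abca8b at 3.97 (0.00257) and the cholesterol exporter Abca1 at 2.92 (0.00115), but none of these was as large as the 6.54 of Abca13. In stromal cells 4 of 12 were called, all lower, with Abca8a at -6.34 (0.00459), Abca6 at -5.38 (0.00574) and Abca9 at -3.75 (0.0053). Of P4-ATPases and partners 5 of 16 were called in epithelial cells, 1 higher and 4 lower, among them Atp10a at 5.58 (0.00175), Atp8a2 at -2.17 (0.000456) and Tmem30b at -2.13 (6.3e-05), and 2 of 17 in stromal cells, both higher. Of the galactosyltransferases and glycosphingolipid enzymes 4 of 11 fell in epithelial cells, led by St3gal5 (-4.68, 0.000456), B4galnt1 (-3.39, 0.000114) and B3gnt5 (-2.69, 0.0053), and 2 of 14 in stromal cells, A4galt and B4galt2. Of the phosphatase 1 subunits edgeR called 0 of 12 in epithelial cells, with 2 at an unadjusted p under 0.05 and 0 by the other tools, and in stromal cells 1, Ppp1r10, which fell (-1.84, 0.00964). The list medians in epithelial and stromal cells were -0.16 and -0.65 for ABCA transporters, -0.35 and 0.29 for P4-ATPases and -0.51 and 0.17 for glycosphingolipid enzymes, against -0.01 and 0.03 over all genes.

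The remaining lists were read beside the same shares. The G-CSF list had 1 of 12 genes called in epithelial cells, Socs3 (log2 fold change 3.19, edgeR adjusted p = 0.00193), and 1 of 13 in stromal cells, Csf3r (4.48, 0.0463), which is also 1 of the 5 neutrophil markers. Of the granule genes Lcn2 (4.95, 0.00851) and Ltf (6.01, 0.000481) rose among the 3 tested in epithelial cells, and Cd177, Lcn2 and Ltf among the 7 tested in stromal cells. Csf3r and these granule genes are neutrophil genes, and tumor stromal libraries 3 and 4 held neutrophil markers at 8.00% and 5.45%, whose part was not tested. Of the proliferation genes edgeR called 0 of 5 in epithelial cells, with 1 at an unadjusted p under 0.05 and 0 by the other tools, and 3 of 4 in stromal cells, all higher. The prokineticin receptor Prokr1 fell in stromal cells (-4.24, 0.0305), and 0 of the 4 resistin-like genes tested there were called by edgeR, with 3 at an unadjusted p under 0.05, 2 called by DESeq2 and 0 by limma-voom.

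B4galt6 lies on the chromosome of Apc, 13.5 Mb from the floxed gene of the tumor-bearing mice, whose strain also differs from that of the healthy mice. Of the other genes within 20 Mb of Apc, edgeR called 1 of 131 tested in blood neutrophils, 0 of 146 in blood monocytes (11 at an unadjusted p under 0.05, 1 by DESeq2 and 0 by limma-voom), 44 of 200 in epithelial cells and 17 of 237 in stromal cells. Those are 0.763%, 0%, 22% and 7.17%, against 4.01%, 0.209%, 15.4% and 8.4% over all genes. For B4galt6, linkage to the floxed allele, strain and tumor cannot be told apart. Atp11a overlaps 2 and Prok2 1 annotated antisense genes, and Ppp1r9a 3 transcripts of its own strand, and since use of strand in counting is not given, their counts may include reads of these.

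Over the 40 libraries each gene followed different companions. The gene most like Abca13 in Pearson correlation of log2(RPKM + 1) was Lcn2 (0.817), a granule protein of neutrophils that epithelium also secretes, then Ifnlr1. Atp11a was most like Atxn10 (0.835), Ngp (0.820) and Wdfy3, B4galt6 like Rhou (0.725), Gm8577 and Eps8, and Ppp1r9a like Prr15 (0.930) and Grb7. Prok2 was most like Olfm4 (0.947), Gm10813 and Gm38118, and Retnlg like Retnla (0.977), Slc2a3 and Mmp9 (0.946). The 40 points fall into 10 groups and share libraries, so these values describe the pattern over cell types, with no test. Among the members themselves Prok2 and Retnlg were the most alike (0.787), and Ppp1r9a had negative values with Retnlg (-0.434), Prok2 (-0.379) and Atp11a (-0.374).

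Lcn2, too, differed between tumor-bearing and healthy mice in these cell types. It was at 24.1 to 69.8 RPKM in healthy and 188 to 600 RPKM in tumor-bearing blood neutrophils, at 0.129 to 1.08 and 3.78 to 27.9 RPKM in the blood monocytes, and at 0.0217 to 1.20 RPKM in healthy and 10.2 to 37.1 RPKM in tumor epithelial cells. In each of these the tumor-bearing libraries were above the healthy ones for both genes. The ratio between the genes was not constant, since tumor epithelial cells held as much Abca13 as blood neutrophils of tumor-bearing mice at their low end, with far less Lcn2.

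**Figure D5:**
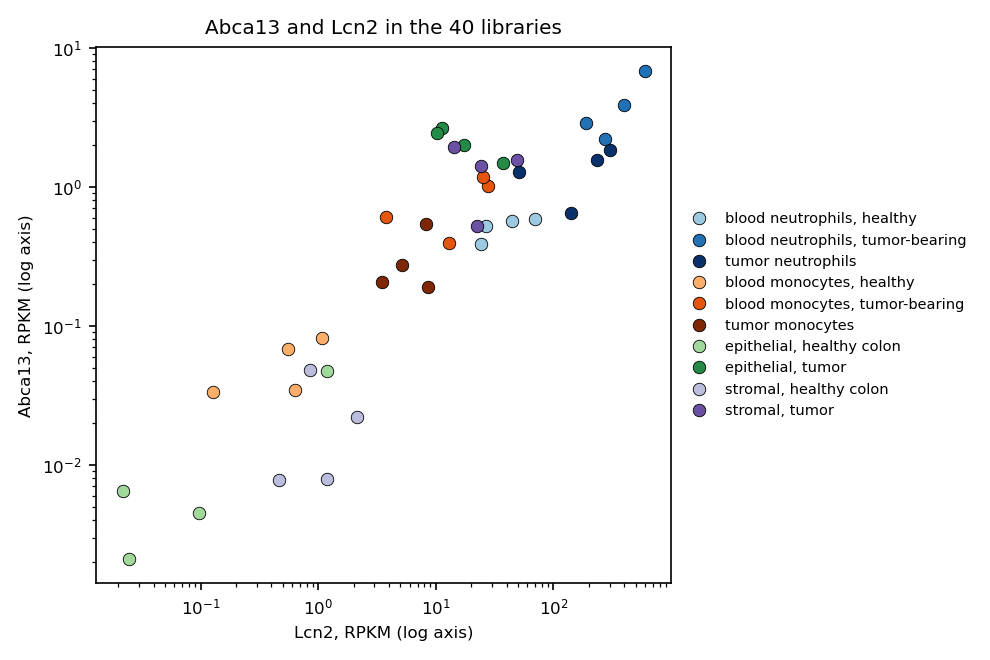
Abca13 (vertical axis) against Lcn2 (horizontal axis) in RPKM on log axes, 1 point per library, colored by group. Healthy colon and healthy blood monocytes lie at the lower left, tumor-bearing blood neutrophils at the upper right, and tumor epithelial cells reach 1.496 to 2.64 RPKM of Abca13 at 10.2 to 37.1 RPKM of Lcn2.

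Ordered by mean RPKM, neighbouring groups mostly overlapped. Abca13 had 1 gap without overlap, between tumor monocytes (0.302 ± 0.162) and healthy blood monocytes (0.0546 ± 0.0246), which set the healthy colon and healthy monocytes apart from all groups of tumor-bearing mice and from healthy neutrophils. Prok2 had 1, between tumor neutrophils (13.5 ± 7.24) and tumor stroma (0.443 ± 0.503). Retnlg had 2, below tumor-bearing blood neutrophils and below healthy blood neutrophils. Atp11a had 1, between tumor epithelial cells and healthy blood monocytes, Ppp1r9a 1, between healthy and tumor-bearing blood neutrophils, and B4galt6 none, with group means from 0.878 ± 0.334 in healthy stroma to 4.17 ± 1.59 RPKM in tumor epithelial cells (SD, n = 4 in each group).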

How the data were processed

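Libraries were made from amplified cDNA. The authors mapped reads to mm10 with Bowtie2, and HTSstation gave counts for Ensembl genes; strand and the handling of reads with several matches are not given in the sources used here. The deposited values are estimated counts, not normalized, and RPKM values computed by the authors from the same counts. Of the nonzero estimated counts, 99.6% were not whole, so they were rounded. Symbols came from GENCODE M21 (45143 of 45706 genes). Under R 4.3.3, edgeR 4.0.16 was run with TMM scaling, filterByExpr and its quasi-likelihood test (robust), over 16 libraries for tumor cell types and over the 8 libraries of 2 groups otherwise, and were tested on simulated data. Alternatives used DESeq2 1.42.0, limma 3.58.1, other scalings and filters, blocks and left-out libraries. The named genes were the 6 members, up to 3 called genes of each list with the largest change, and the 3 genes most like each member, some of which are not reported here. Members and lists were chosen with earlier results of these data known. The main fits used no pairing of libraries, although some libraries of different groups share an animal. Intervals and floors cover counting error only.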

Additional observations from a re-analysis of the deposited data

Results flagged for a closer look

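The 4 libraries of each gene in each of the 10 groups, 60 sets in all, were searched for a library far from the others by Dixon's test, which flags about 1 set in 20 by chance, and 5 were found. They are Abca13 in healthy epithelial library 1 (0.0477 RPKM), Atp11a in tumor epithelial library 4 (3.00 RPKM), Ppp1r9a in blood neutrophil library 2 of tumor-bearing mice (0.0188 RPKM), Retnlg in blood monocyte library 2 of healthy mice (71.8 RPKM) and Retnlg in tumor epithelial library 3 (2.08 RPKM). For Ppp1r9a every blood neutrophil library of tumor-bearing mice was below, and every blood monocyte library above, the healthy ones, and its log2 fold change in neutrophils minus that in monocytes was -5.32. This difference was not tested, since both contrasts chose the gene.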

How the results depend on the processing

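Of 512 values of 28 tested results under alternatives, 439 kept their direction and their side of the threshold, 19 lost the call, 27 gained it and 27 turned sign; of 371 values of 22 described results, 15 moved by more than the replicate spread. Against tumor epithelial cells 5 members were called with limma-voom, in a fit of all 40 libraries and, an alternative added after seeing the data, without the libraries with epithelial transcripts, and leaving out 1 library gave 3 to 5 (5 without tumor neutrophil library 1). Against tumor stroma 1 was called with at least 10 counts in every library and 0 with the animal as a block. Between tumor and healthy epithelium 1 was called with at least 10 counts in every library. Between tumor and healthy stroma 1 was called with at least 10 counts in every library or on log2(RPKM + 0.1), 0 on log2(RPKM + 1), 4 with DESeq2 or all 40 libraries, and leaving out 1 library gave 1 to 3. The cause was not tested. The added alternative without stromal libraries 1 and 2 gave 3. The share of all genes called under each alternative is not given, so these counts do not show whether the members or all genes changed. The 5 against tumor epithelial cells include Prok2, whose call is no support.

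By their titles, some tumor neutrophil, monocyte, epithelial and stromal libraries with the same replicate number come from the same animal, and others from the same animal differ in number. No comparison had every correlation between libraries of the same number above 0.1. Blood monocytes came nearest, at 0.0614 to 0.205, with 7 of 8 libraries best with their own number. By their titles, tumor-bearing and healthy groups share no animal, so pairing by animal does not apply to comparisons between them, blood monocytes included. For comparisons within tumor-bearing mice, these correlations cannot exclude pairing by animal. With the replicate block 1 member was called between tumor and healthy stroma, B4galt6 being at 1.98 (edgeR adjusted p = 0.114). These groups share no animal, so that block joins libraries of different mice by number only and does not show an effect of pairing.

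Signs turned for 5 differences that did not pass the test. Ppp1r9a in tumor neutrophils against monocytes was at -0.17 on log2(RPKM + 0.1), -0.38 with the animal block, -0.62 without the libraries with epithelial transcripts and -0.58 to 1.25 with 1 library left out. Abca13 against tumor epithelium was at -0.038 with RLE size factors or DESeq2, -0.18 without a filter, -0.48 with at least 10 counts, -0.45 and -0.71 on log2(RPKM + 1) and log2(RPKM + 0.1), -0.21 with all 40 libraries and -0.18 to 0.24 with 1 left out, and against stroma it was at -0.0037 on log2(RPKM + 1). Ppp1r9a in epithelium ranged from -0.036 to 0.31 with 1 left out. Atp11a in stroma was at -0.0135 without a filter, -0.00499 with at least 10 counts, -0.26 and -0.32 on log2(RPKM + 1) and log2(RPKM + 0.1), -0.034 with all 40 libraries and -0.25 to 0.37 with 1 left out. By Spearman correlation 0 of the 3 genes most like Prok2 or Retnlg were shared. Genes with few counts, such as Prok2 outside neutrophils, are limited by depth.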
